A study of Mus musculus with 12 samples.

Results

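Genes of cholesterol synthesis and of its feedback control were followed through the differentiation of mouse embryonic stem (ES) cells towards neuromesodermal progenitors (NMPs), the caudal progenitors of spinal cord and paraxial mesoderm. The 7 genes were chosen by name from a table of 25965 genes: Hmgcs1, Idi1, Fdps, Sqle, Lss, Dhcr7 and Insig1. All 7 were found once each, and all 7 passed the filter on low values that left 14063 genes to test. The 7 are genes of synthesis and feedback, so genes of uptake and transport were read from a separate list beside them.

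Each of 6 groups held 2 RNA-seq libraries: Smchd1 del/del and Smchd1 fl/fl cells at day 1, day 5 and day 8. Smchd1 encodes a chromatin protein with a role in gene silencing. The cells were C57BL/6 and labelled male, and replicate 1 is line 1 and replicate 2 is line 3 in every group. Each line was split into a part transduced with the MSCV-Cre-puro retrovirus and selected with puromycin (del/del) and a part left untransduced (fl/fl). The deletion therefore cannot be told apart from transduction and selection, which the fl/fl controls did not undergo. All cells were derived in 2i and LIF, moved to serum and LIF, and then given Fgf2, later a Gsk3 inhibitor and last Gdf11. Sample labels name the first time point day 1 and the protocol text names it day 0; day 1 is used here. The labels do not say whether the 2 libraries of a line at different days came from separate cultures, so the p-values measure the spread between these libraries.

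Cholesterol is built from acetyl-CoA through mevalonate to isoprenoid units, which are joined to farnesyl diphosphate, then to squalene, and closed and trimmed to the sterol. Most genes of the route are switched on by SREBP2, the product of Srebf2, a transcription factor held in the endoplasmic reticulum when sterol is plentiful. Cells also take up cholesterol in lipoproteins, through receptors at the cell surface. Among the 7 genes, Hmgcs1 makes HMG-CoA, from which mevalonate is formed. Idi1 interconverts the isoprenoid units and Fdps joins them into farnesyl diphosphate. Sqle oxidises squalene, Lss closes it to lanosterol, and Dhcr7 carries out a final reduction to cholesterol. Insig1 is the feedback protein that retains the SREBP complex in the endoplasmic reticulum, and it is itself an SREBP target.

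Promoter sequence of the members, from 250 bases before to 50 bases after a transcription start, was available for 5 of the 7 in RefSeq (GRCm38.p6). Those of the 3 members that passed a test below, Insig1, Lss and Idi1, are shown with that of Hmgcs1, which held the sterol element. Capitals mark the sterol element TCACNCCAC bound by SREBP, the NF-Y box CCAAT, which reads ATTGG on the other strand, and the E-box CACGTG, each searched on both strands. They lie at chr13:119690101-119690400, chr5:28071162-28071461, chr10:76531355-76531654 and chr13:8885356-8885655 in the order below, all on the + strand.
Hmgcs1: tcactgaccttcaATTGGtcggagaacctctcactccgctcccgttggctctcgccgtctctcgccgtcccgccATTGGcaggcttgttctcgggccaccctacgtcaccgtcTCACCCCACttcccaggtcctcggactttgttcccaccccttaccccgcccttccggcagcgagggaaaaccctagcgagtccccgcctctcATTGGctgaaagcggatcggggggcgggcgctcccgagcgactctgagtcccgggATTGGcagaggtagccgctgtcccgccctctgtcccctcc
Insig1: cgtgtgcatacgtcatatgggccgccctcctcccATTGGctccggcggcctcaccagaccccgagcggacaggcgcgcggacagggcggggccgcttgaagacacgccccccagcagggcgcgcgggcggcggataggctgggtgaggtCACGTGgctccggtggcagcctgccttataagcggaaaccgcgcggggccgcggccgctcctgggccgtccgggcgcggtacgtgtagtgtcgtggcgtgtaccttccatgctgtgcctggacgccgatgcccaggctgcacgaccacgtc
Lss: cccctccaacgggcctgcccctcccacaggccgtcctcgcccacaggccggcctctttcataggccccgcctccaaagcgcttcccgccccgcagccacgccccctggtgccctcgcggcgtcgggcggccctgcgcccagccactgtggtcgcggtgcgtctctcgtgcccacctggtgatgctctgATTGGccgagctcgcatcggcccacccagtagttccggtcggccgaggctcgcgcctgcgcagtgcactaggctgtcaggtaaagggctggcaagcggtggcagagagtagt
Idi1: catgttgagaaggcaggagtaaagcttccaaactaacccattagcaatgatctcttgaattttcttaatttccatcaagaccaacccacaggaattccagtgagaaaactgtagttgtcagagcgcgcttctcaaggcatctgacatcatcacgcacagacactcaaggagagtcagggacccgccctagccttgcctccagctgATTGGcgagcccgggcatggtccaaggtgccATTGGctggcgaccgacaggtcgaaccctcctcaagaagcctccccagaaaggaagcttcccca
The Hmgcs1 promoter held 1 sterol element, 137 bases before the start, and 4 NF-Y boxes. Of the 5 members searched, Hmgcs1 alone held a sterol element. The promoters of Dhcr7, not shown, held 0, with 2 NF-Y boxes in 1 of them and 1 E-box in another. The Idi1 promoter held 2 NF-Y boxes, that of Lss 1, and that of Insig1 1 NF-Y box and 1 E-box. No match overlapped another. Of 32851 RefSeq promoters of this length, 1.24% held the sterol element, 37.4% an NF-Y box and 7.15% the E-box. These are matches of letters and say nothing of binding in these cells.

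The values are log2 RPM, reads scaled to a library total of 1000000, shifted in each library so that the median gene is level, and are called relative log2 RPM. The shift was made because the median gene moved on the deposited scale. Reads in genes made up only 10.1 to 27.8% of the reads that scale divides by. On the deposited scale the median gene differed by 0.15, -0.40 and 0.90 between del/del and fl/fl at day 1, 5 and 8. It differed by -0.88 in del/del and -0.42 in fl/fl between day 5 and day 1. Between day 8 and day 5 it differed by 0.69 in del/del and -0.55 in fl/fl. Gene reads numbered 1509642 to 8670941 per library, lowest in fl/fl day 8 replicate 2, whose column name carries the word merge. Reads of the densest genes followed depth less than the gene total did, with 1680 to 2090 reads for Eef1a1, 4091 to 6789 for Eef2 and 3644 to 6132 for Hsp90ab1 over the 12 libraries. In fl/fl day 8 replicate 2 Eef1a1 stood at 7.91 relative log2 RPM, against 5.91 in replicate 1. Hmgcs1, the densest member, had 111 to 765 reads per kb and Sqle 76.5 to 518, against 674 to 838 for Eef1a1. A value with the trend against reads per kb removed is given where it changes a call. Smchd1 itself was at 1.82 to 2.57 relative log2 RPM in the 6 del/del libraries, against 3.99 to 5.36 in the 6 fl/fl libraries. The summed relative RPM of 10 pluripotency markers was 153 to 195 in day 1 libraries, 72.4 to 102 in day 5 libraries and 58.3 to 87.5 in day 8 libraries, where Prdm14 was at 0. That of 10 NMP markers was 44.0 to 54.4, 86.1 to 149 and 31.6 to 48.6, with Wnt3a, Tbx6 or Fgf8 at 0 in some day 1 and day 8 libraries and no marker at 0 at day 5. Both sums mix markers that moved in opposite directions. Between day 5 and day 1, 7 of 9 tested NMP markers rose and 1 fell in each genotype (limma, adjusted p under 0.05). Their median log2 difference was 4.85 for del/del cells and 4.86 for fl/fl cells. By the same test 2 of 9 pluripotency markers rose in each genotype, while 6 fell for del/del cells and 5 for fl/fl cells. On the deposited scale the rising pluripotency markers numbered 0 and 1.

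All 7 genes were read in every library, at levels that spanned a wide range. Per kb of annotated exon, the mean level over 12 libraries was 16.5 ± 2.61 relative RPM for Hmgcs1 (SD), on chromosome 13 from 119690462 to 119708086 (mm10, + strand). Sqle, on chromosome 15 from 59315077 to 59331192 (+ strand), was at 10.6 ± 1.72 relative RPM per kb. Insig1, on chromosome 5 from 28071363 to 28078662 (+ strand), followed at 8.26 ± 2.27. Within libraries Sqle lay above Insig1 in 12 of 12. Lss (chromosome 10, 76531588 to 76557138, + strand) was at 4.30 ± 1.72 relative RPM per kb. Dhcr7 (chromosome 7, 143823145 to 143848410, + strand) was at 4.13 ± 0.772. Fdps (chromosome 3, 89093592 to 89101967, - strand) was at 3.31 ± 0.808. Dhcr7 lay above Fdps in 12 of 12 libraries, while Lss lay above Dhcr7 in all 4 day 1 libraries and in 0 of 4 at day 8. The order of Lss and Dhcr7 rests on annotated exon lengths of 10787 and 5817 bases. In reads Lss stood above Dhcr7 at day 8, with 1458 and 1235 against 874 and 874 in del/del libraries. In fl/fl libraries it had 1127 and 133 reads against 664 and 110. Idi1 was lowest at 0.832 ± 0.296 relative RPM per kb, on chromosome 13 from 8885501 to 8892451 (+ strand), and rested on 15 to 165 reads per library. The other 6 genes had 62 to 3514 reads. Lss shares 11268 bases with 4930483K19Rik on the opposite strand, a gene with 74 to 1796 reads here. Hmgcs1 overlaps the antisense gene Gm48342, and Fdps overlaps Gm43738 on its own strand. The sources used here do not say whether reads were counted by strand, so reads of these pairs cannot be told apart.

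All 7 genes were lower at day 8 than at day 1: each of the 4 day 8 libraries lay below each of the 4 day 1 libraries for 7 of 7 members, as it did for 29.9% of all tested genes. This held for 7 of 7 on the deposited scale and with scaling to total gene reads as well, against 41.8% and 31.1% of all tested genes. Between day 5 and day 1 the 4 libraries of each day parted in the same way for 3 of 7 members, Insig1, Lss and Idi1, against 27.4% of all tested genes. They parted for 7 of 7 on the deposited scale, against 43.7% of all tested genes, and for 4 with total gene reads, against 27.6%. In bulk RNA, fewer cells of a type and less RNA per cell cannot be told apart.

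**Figure D1:**
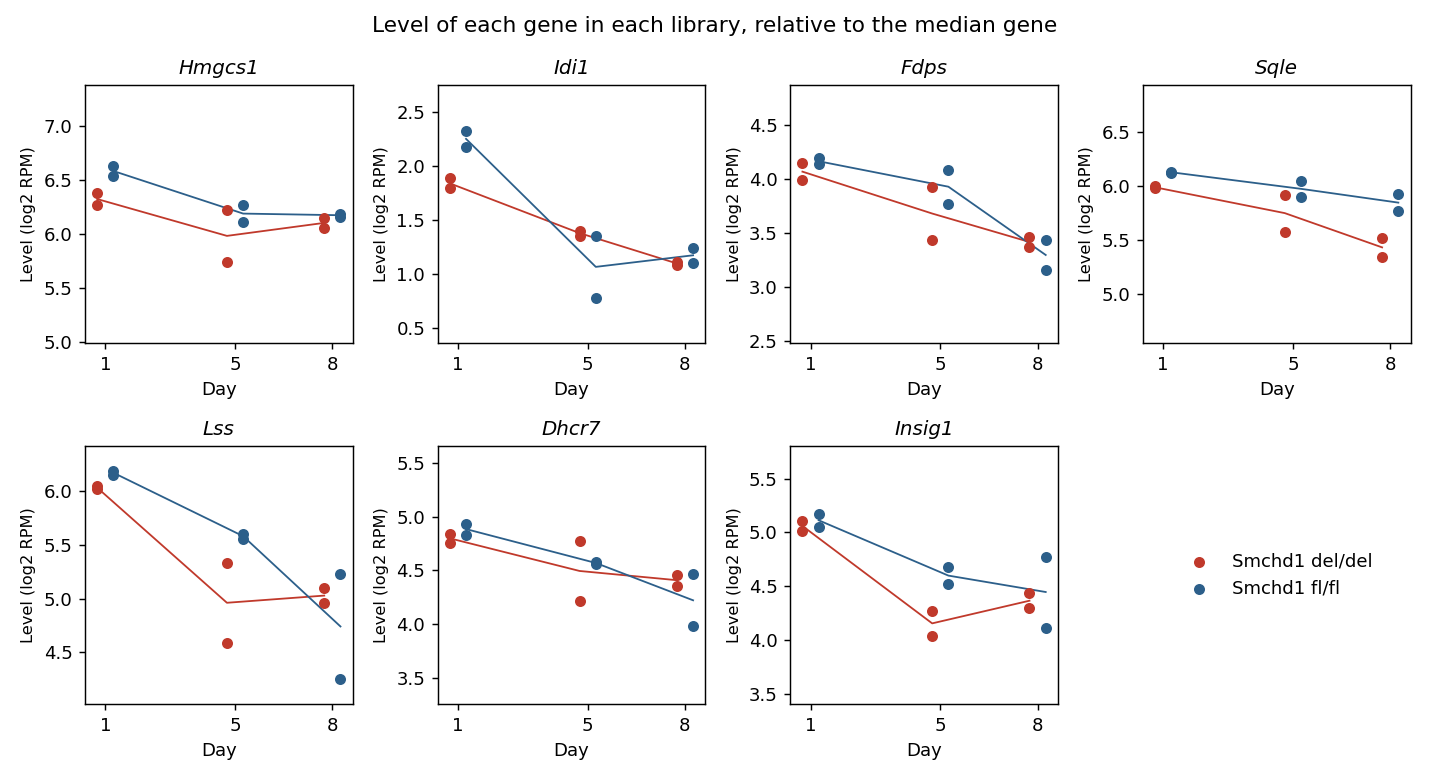
Relative log2 RPM (vertical axis, each panel spanning the same log2 range) of the 7 genes in each library (points) and group mean (lines) by day (horizontal axis), with del/del in red and fl/fl in blue. The day 8 points lie below the day 1 points in all 7 panels, and Lss spans the widest range, 1.93 on the log2 scale.

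In the mevalonate arm, which ends with farnesyl diphosphate, 3 of the genes were highest at day 1 within each genotype. Hmgcs1 had 6.38 and 6.27 relative log2 RPM in del/del libraries at day 1, 6.23 and 5.74 at day 5 and 6.15 and 6.06 at day 8. The fl/fl libraries had Hmgcs1 at 6.63 and 6.54, then 6.27 and 6.11, then 6.16 and 6.19 relative log2 RPM. Hmgcs1 was thus highest at day 1 within each genotype and lowest of all in del/del day 5 replicate 2. Idi1 had 1.89 and 1.80 relative log2 RPM in del/del libraries at day 1, 1.36 and 1.40 at day 5, and 1.08 and 1.12 at day 8. In fl/fl libraries Idi1 had 2.33 and 2.18, then 0.78 and 1.35, then 1.24 and 1.11. The day 1 libraries were the highest in both genotypes, and fl/fl day 5 replicate 1 was the lowest of all, on 38 reads. Fdps had 4.15 and 3.99 relative log2 RPM in del/del libraries at day 1, 3.92 and 3.44 at day 5, and 3.46 and 3.37 at day 8. The fl/fl libraries had Fdps at 4.19 and 4.14, then 4.08 and 3.77, then 3.43 and 3.15. Its fl/fl values at day 8 lay below all its fl/fl values at day 5.

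In the sterol arm, Lss had the widest range. Lss had 6.02 and 6.04 relative log2 RPM in del/del libraries at day 1, 5.34 and 4.59 at day 5, and 5.10 and 4.96 at day 8. In fl/fl libraries Lss had 6.18 and 6.15, then 5.60 and 5.56, then 5.23 and 4.25. The 2 low values, in del/del day 5 replicate 2 and fl/fl day 8 replicate 2, stand well apart from their partners. Sqle had 6.00 and 5.98 relative log2 RPM in del/del libraries at day 1, 5.92 and 5.58 at day 5, and 5.52 and 5.35 at day 8. The fl/fl libraries had Sqle at 6.12 and 6.13, then 6.05 and 5.90, then 5.77 and 5.93. At day 8 the 2 del/del values lay below both fl/fl values. Dhcr7 ranged from 3.98 relative log2 RPM in fl/fl day 8 replicate 2 to 4.94 in fl/fl day 1 replicate 2. Insig1, the feedback protein, had 5.10 and 5.02 relative log2 RPM in del/del libraries at day 1, 4.28 and 4.04 at day 5, and 4.30 and 4.44 at day 8. In fl/fl libraries Insig1 had 5.05 and 5.17, then 4.52 and 4.68, then 4.78 and 4.12. The del/del values of Insig1 at day 5 lay below both fl/fl values of that day, while at day 8 the groups overlapped.

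Between day 5 and day 1 in del/del cells, Insig1 and Lss fell, 2 of the 7 genes, against 18.3% of all tested genes lower and 21.2% higher at an adjusted p under 0.05 (limma, Benjamini-Hochberg). Insig1 fell by 0.90 on the log2 scale (SE 0.19, adjusted p = 0.00395 by limma), and this call held under every alternative run, with adjusted p from 0.00035 to 0.034. Lss fell by 1.07 (SE 0.28, adjusted p = 0.0122 by limma), a 2.10-fold difference. The Lss call was lost without either del/del day 1 library, with adjusted p of 0.0575 and 0.0604 by limma. It was also lost without del/del day 5 replicate 2, where the difference was -0.69 with an adjusted p of 0.0973. The other 5 genes had differences of -0.24 to -0.46 that did not pass. With the trend against reads per kb removed, Hmgcs1 differed by -0.57 and passed (adjusted p = 0.0277), against -0.34. On the deposited scale the count of members called lower was 6 of 7, where 4928 of 14063 tested genes were lower. Without del/del day 5 replicate 1, Hmgcs1, Sqle, Dhcr7 and Fdps differed by -0.60, -0.42, -0.59 and -0.64.

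In fl/fl cells Idi1 fell between day 5 and day 1, 1 of the 7 genes, against 17.9% of all tested genes lower and 23.0% higher. Idi1 fell by 1.19 on the log2 scale (SE 0.28, adjusted p = 0.00612 by limma), a 2.28-fold difference on 38 and 102 reads at day 5, against 163 and 165 at day 1. This call was lost without fl/fl day 1 replicate 1 (adjusted p = 0.0536), without fl/fl day 5 replicate 1 (0.0563) and on the deposited scale (0.0524). Insig1 differed by -0.51 (SE 0.19, adjusted p = 0.0549), Hmgcs1 by -0.40 (SE 0.15, adjusted p = 0.0596) and Lss by -0.59 (SE 0.28, adjusted p = 0.122 by limma). With the cell line as a block, Hmgcs1 passed too, with an adjusted p of 0.044 by limma. This gave 2 of 7, where 2429 of 14063 tested genes were lower. Without del/del day 5 replicate 1 or 2, Hmgcs1 differed by -0.39 and -0.38. Without fl/fl day 8 replicate 1 or 2, Lss differed by -0.59 and -0.58 and Insig1 by -0.51 and -0.50. All 7 genes had negative differences in both genotypes on the relative, deposited and total-read scales. The median difference of the 7 was -0.39 in del/del and -0.40 in fl/fl cells, against 0.03 and -0.04 over all tested genes.

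Between day 8 and day 5, 0 of 7 members passed by limma in either genotype. In del/del cells 4.67% of all tested genes were lower and 7.24% higher, and in fl/fl cells 3.58% were lower and 3.15% higher. In fl/fl cells Fdps differed by -0.63 (SE 0.19, adjusted p = 0.0734) and Lss by -0.84 (SE 0.28, adjusted p = 0.0993 by limma). With the cell line as a block, Fdps passed with an adjusted p of 0.0483 by limma, where 431 of 14063 tested genes were lower. Without del/del day 5 replicate 1 or 2, Fdps differed by -0.63 in each fit. Without fl/fl day 8 replicate 1, Fdps differed by -0.77 and Lss by -1.32. That fit leaves the shallowest library to stand for its group. In del/del cells Sqle had the smallest p, with a difference of -0.32 (SE 0.14, adjusted p = 0.159 by limma; 0.0392 without del/del day 5 replicate 2).

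**Figure D2:**
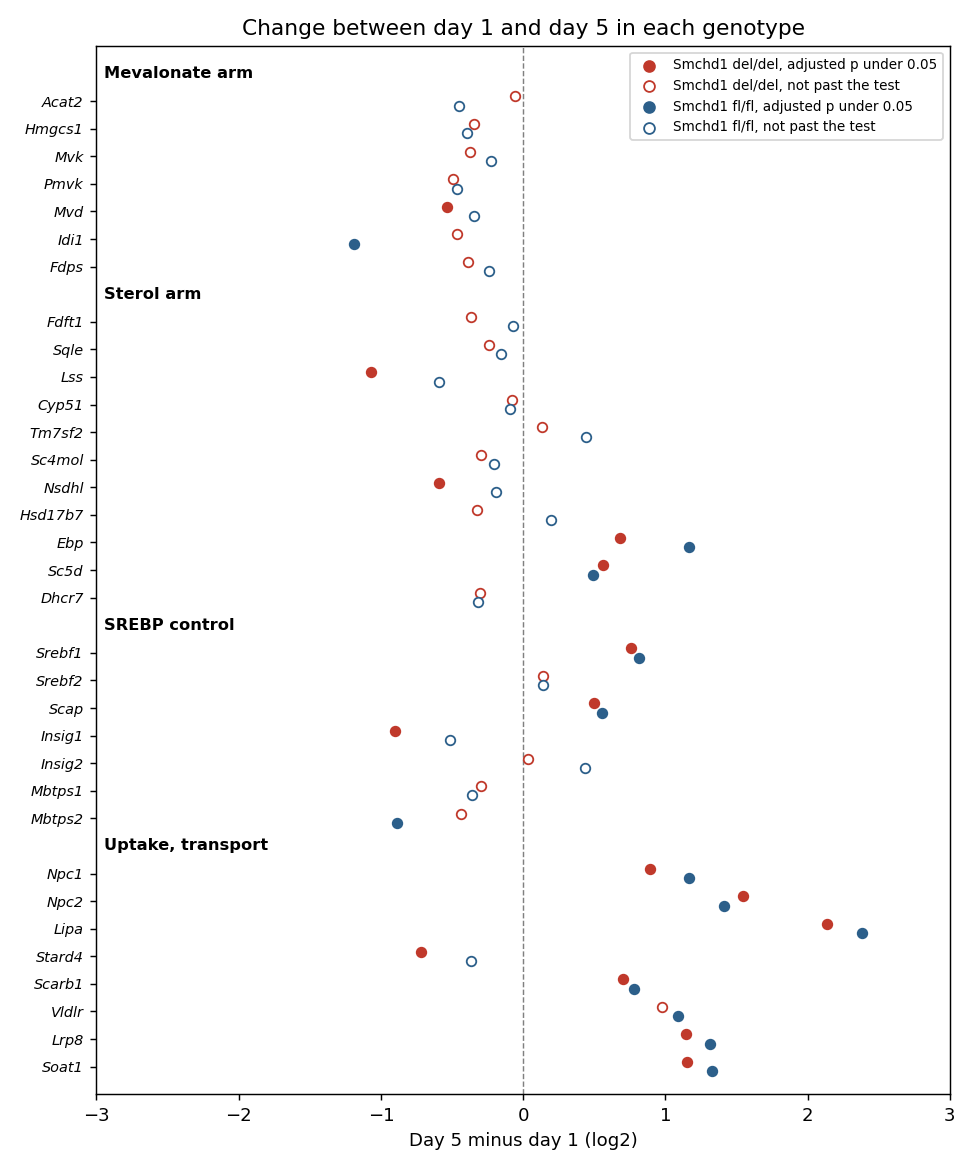
Difference between day 5 and day 1 (log2, horizontal axis) for genes of both synthesis arms, SREBP control and uptake and transport, with del/del in red above fl/fl in blue. Filled points passed the test at an adjusted p under 0.05 and open points did not. The genes of the mevalonate arm lie left of 0, and Lipa, Npc2, Soat1 and Npc1 lie to the right in both genotypes.

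The other genes of the route were read from lists of both synthesis arms, 18 genes in all with 6 of the members among them. Between day 5 and day 1 in del/del cells 3 of the 18 were lower and 2 higher, no more than the 18.3% and 21.2% of all tested genes would give, with a median difference of -0.33 against 0.03. Mvd, which makes the isoprenoid unit, fell by 0.54 (adjusted p = 0.0187) and the demethylation enzyme gene Nsdhl by 0.59 (0.0424), beside Lss. Of 21 alternatives, 4 lost the call for Mvd and 11 for Nsdhl. In fl/fl cells 1 of 18, Idi1, was lower and 2 were higher, against 17.9% and 23.0% of all tested genes, with a median difference of -0.22 against -0.04. With the cell line as a block 5 were lower in del/del and 3 in fl/fl, beside 2501 and 2429 of 14063 tested genes. The 2 genes that rose in both genotypes act late in the sterol arm. Ebp, a sterol isomerase gene, differed by 0.68 in del/del and 1.17 in fl/fl cells (adjusted p = 0.0464 and 0.00339 by limma). Sc5d, a sterol desaturase gene, differed by 0.56 and 0.49 (adjusted p = 0.0106 and 0.0208). In del/del cells both were negative on the deposited scale, at -0.22 and -0.34, and 13 more of the 21 alternatives lost the call for Ebp. The Sc5d call was lost in 3 of 21 alternatives in del/del cells, among them without del/del day 1 replicate 1, and in 5 in fl/fl cells, among them without any 1 of the 4 fl/fl libraries. With single libraries left out, the count of lower genes changed in both genotypes. Such a fit leaves 1 library in a group, and the number of all tested genes called changed with it. These counts are therefore not read as a result about the route.

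Among genes of uptake and transport, most were called higher between day 5 and day 1. Of 8 tested genes 6 were higher and 1 lower in del/del cells, against 21.2% and 18.3% of all tested genes, and 7 were higher and 0 lower in fl/fl cells, against 23.0% and 17.9%. On the deposited scale only 0 and 2 were higher, beside 826 and 1221 of 14063 tested genes. Lipa, the lysosomal enzyme that frees cholesterol from its esters, rose by 2.14 in del/del and 2.38 in fl/fl cells (adjusted p = 0.00041 and 0.000215 by limma). Its reads were 103 and 81 at day 5 against 34 and 46 at day 1 in del/del cells, and 92 and 229 against 37 and 28 in fl/fl cells. Npc2 and Npc1, which carry cholesterol out of the lysosome, differed by 1.55 and 0.89 in del/del and by 1.41 and 1.17 in fl/fl cells. Soat1, which esterifies cholesterol for storage, differed by 1.15 in del/del and 1.33 in fl/fl cells. Lrp8, a lipoprotein receptor gene, differed by 1.15 and 1.32. Each of these 4 passed the test in both genotypes. Stard4, a sterol carrier gene, fell by 0.72 in del/del cells (adjusted p = 0.00781 by limma), a call lost without del/del day 1 replicate 2 (0.0682).

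The regulator gene Srebf2 differed by 0.14 in each genotype and did not pass. In the list of 7 SREBP control genes 2 were higher and 1 lower in each genotype, near the shares of all tested genes. On the deposited scale 0 were higher and 3 lower in del/del cells, and 0 and 0 in fl/fl cells. Of 14063 tested genes 826 were higher and 4928 lower there in del/del cells, and 1221 and 1436 in fl/fl cells. Srebf1, the paralogue that mainly drives fatty acid genes, rose by 0.76 in del/del and 0.81 in fl/fl cells (adjusted p = 0.000659 and 0.000435). Scap, which escorts SREBP out of the endoplasmic reticulum, rose by 0.50 and 0.55 (adjusted p = 0.0206 and 0.0122). In del/del cells Srebf1 and Scap were negative on the deposited scale, at -0.15 and -0.41. In fl/fl cells both lost the call on that scale (adjusted p = 0.44 and 0.775), as did Mbtps2 (0.0647). The Scap call was lost in 5 of 21 alternatives in each genotype, among them without either del/del day 1 library or del/del day 5 replicate 1, and without any 1 of the 4 fl/fl libraries. The lower gene was Insig1 in del/del cells and Mbtps2, a protease that activates SREBP, in fl/fl cells (-0.88, adjusted p = 0.00329). Between day 8 and day 5 in del/del cells Lipa rose by 1.40 (adjusted p = 0.018), a call lost in 3 of 21 alternatives, among them without either del/del day 8 library. In fl/fl cells Pmvk, the next kinase after Mvk in the mevalonate arm, fell by 1.25 (adjusted p = 0.00735 by limma), a call lost without fl/fl day 5 replicate 1 (0.0932) and with only the groups compared (0.1).

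Genes next to the route were read from a list of fatty acid synthesis under SREBP and a list of cholesterol efflux and the sterol-sensing receptor LXR. Of 10 fatty acid genes 3 were higher and 1 lower between day 5 and day 1 in del/del cells, and 4 were higher and 0 lower in fl/fl cells, with median differences of 0.02 and 0.29. The shares of all tested genes were 21.2% higher and 18.3% lower in del/del and 23.0% and 17.9% in fl/fl cells. The counts of fatty acid genes on the deposited scale were 0 higher and 4 lower in del/del cells and 0 and 0 in fl/fl cells. The counts over all 14063 tested genes on that scale were 826 and 4928, and 1221 and 1436. The desaturase gene Fads1 rose by 1.27 in del/del and 1.31 in fl/fl cells (adjusted p = 0.000143 and 0.000116 by limma; 0.463 and 0.108 on the deposited scale). Scd2, another desaturase gene, rose by 0.79 and 0.62, and Acss2, which makes acetyl-CoA from acetate, by 0.91 and 1.46. On the deposited scale Scd2 and Acss2 turned negative in del/del cells, at -0.12 and -0.00072. The del/del call of Acss2 was lost in 4 of 21 alternatives, among them without del/del day 1 replicate 2 or day 5 replicate 1. Elovl6, a fatty acid elongase gene, fell by 0.77 in del/del cells (adjusted p = 0.00801), a call lost without del/del day 1 replicate 1 or day 5 replicate 2. Me1, an NADPH-producing enzyme gene, rose by 1.04 in fl/fl cells (adjusted p = 0.00123 by limma; 0.331 on the deposited scale). Of 5 genes tested in the efflux and LXR list, 1 was higher and 2 were lower in del/del cells. In fl/fl cells 1 was higher and 1 lower. The shares of all tested genes were those given above. Mylip, a ubiquitin ligase gene under LXR, rose by 1.58 in del/del and 0.98 in fl/fl cells (adjusted p = 0.00279 and 0.0305 by limma), the fl/fl call being lost in 5 of 21 alternatives, among them without any 1 of its 4 libraries. Nr1h2, which encodes the sterol-sensing receptor LXR beta, fell by 0.46 in del/del cells and lost the call in 5 of 21 alternatives. The efflux transporter gene Abcg1 differed by -3.46 and -3.23 (adjusted p = 0.0369 and 0.0472). Its call was lost in 6 of 21 alternatives in del/del, where the difference was -1.44 without del/del day 5 replicate 2. It was lost in 11 of 21 in fl/fl, the block by cell line included (adjusted p = 0.0574 by limma).

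Between genotypes, 0 of 7 members passed by limma at day 1, day 5 or day 8 or in the mean over days. Of all tested genes 0.00711% passed at day 1, 0.00711% at day 5, 15.0% at day 8 and 0.107% in the mean over days, where the block by cell line left 1 gene of 15. At an unadjusted p under 0.05 the members held 0 genes at day 1, Insig1 at day 5, and Sqle at day 8 and in the mean over days, against 1.21%, 7.74%, 34.5% and 24.5% of all tested genes. The counts over all genes changed with single libraries. At day 8 they were 2109 with all libraries, 52 without del/del day 8 replicate 2, 299 without fl/fl day 8 replicate 2, and 0 with only the groups compared. Without del/del day 5 replicate 1 they were 1579 at day 5, against 1, and 3082 in the mean over days, against 15. A p that misses the threshold does not show that the genotypes were alike, and the intervals below give what remained possible.

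**Figure D3:**
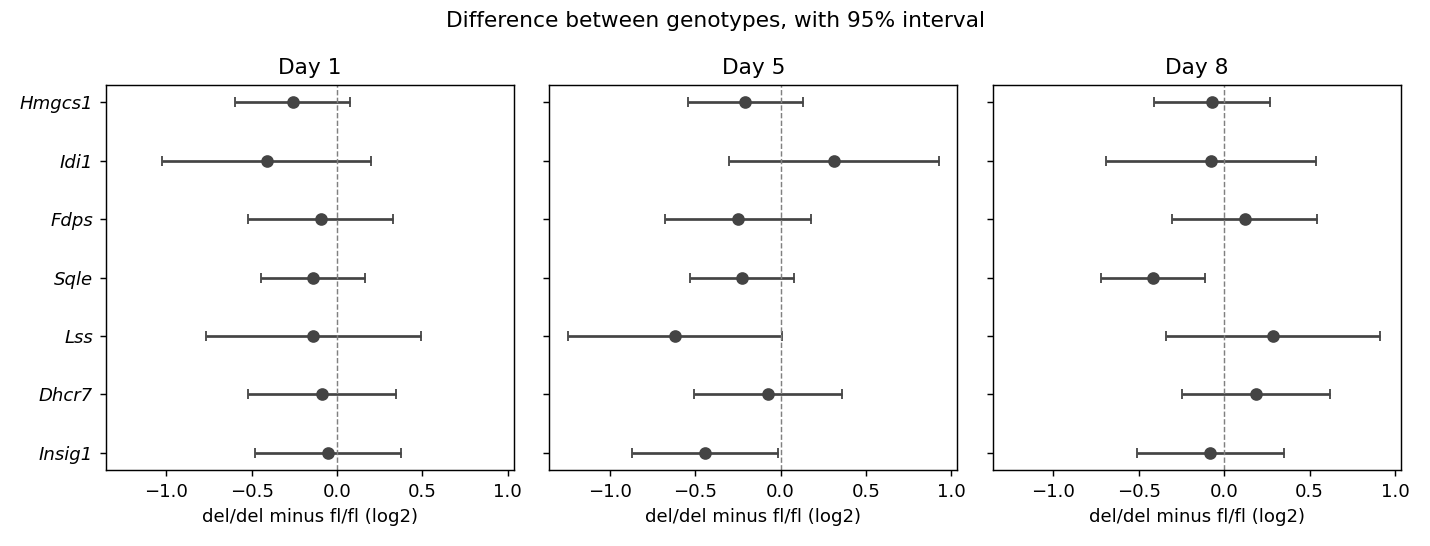
Difference between del/del and fl/fl (log2, horizontal axis) for the 7 genes at day 1, 5 and 8, with 95% intervals from limma as bars. Intervals that leave out 0 are those of Insig1 at day 5 and Sqle at day 8, and neither passed after adjustment over all tested genes.

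At day 1 all 7 differences were negative relative to the median gene, from -0.05 for Insig1 to -0.41 for Idi1, with a median of -0.14, whereas on the deposited scale 5 of the 7 were positive. Del/del libraries lay below both fl/fl libraries for 4 of 7 members, Lss, Idi1, Hmgcs1 and Sqle, as for 19.8% of all tested genes. On the deposited scale they did so for 2 of 7, against 3.61% of all tested genes. Over both synthesis arms 16 of 18 genes were negative, against 51.2% of all tested genes. The median of the 18 was -0.14. On the deposited scale 6 of the 18 were negative and 12 positive, with the median gene itself 0.15 higher in del/del. The interval of Hmgcs1, -0.60 to 0.08, was the one of smallest p.

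At day 5, 6 of 7 differences were negative, with a median of -0.23, and 16 of the 18 synthesis genes were, against 52.6% of all tested genes. Del/del libraries lay below both fl/fl libraries for 2 of 7 members, Insig1 and Lss, as for 19.8% of all tested genes. On the deposited scale they did so for 4 of 7, against 25.3% of all tested genes, and with total gene reads for 3, against 20.7%. All 7 members and all 18 synthesis genes were negative on the deposited scale, with the median gene itself at -0.40. Insig1 differed by -0.44 (interval -0.87 to -0.01, adjusted p = 0.597 by limma) and Lss by -0.62 (interval -1.25 to 0.01, adjusted p = 0.597). Among the day 5 libraries Insig1 and Lss were both lowest in del/del replicate 2. That library also held the most NMP marker signal of any library, 149 relative RPM against 96.1 in replicate 1. Without that library the Lss difference was -0.25, and the part of that library's state in the result was not tested further.

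At day 8 Sqle had 5.52 and 5.35 relative log2 RPM in del/del libraries, against 5.77 and 5.93 in fl/fl libraries, and the groups did not overlap. The difference was -0.42 (SE 0.14, interval -0.72 to -0.11, adjusted p = 0.0631 by limma), a 1.33-fold difference. It was 0.46 on the deposited scale, with the median gene itself 0.90 higher in del/del. It passed without either del/del day 5 library (adjusted p = 0.0262 and 0.0245) and without fl/fl day 8 replicate 1 (0.0352). In these 3 fits 23.7%, 23.8% and 33.2% of all tested genes passed. Without that last library Lss passed as well, with a difference of 0.77 (adjusted p = 0.0356) against 0.29 with it. That fit sets both del/del libraries against the shallowest library alone, in which Lss had 133 reads. Del/del libraries lay below both fl/fl libraries for 2 of 7 members, Hmgcs1 and Sqle, as for 30.9% of all tested genes. On the deposited scale they did so for 0 of 7, against 3.69% of all tested genes. With total gene reads they did so for Sqle alone, 1 of 7, against 23.8%. In the mean over days Sqle differed by -0.26 (SE 0.08, adjusted p = 0.0978 by limma). It passed without del/del day 5 replicate 1 (-0.32, adjusted p = 0.0124) and without fl/fl day 8 replicate 1 (0.0348), fits in which 21.9% and 19.2% of all tested genes passed. Hmgcs1 also passed without del/del day 5 replicate 1 (-0.27, adjusted p = 0.0215).

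Of the 8 genes of uptake and transport, Npc1 passed between genotypes at day 8, against 15.0% of all tested genes. Npc1 had 4.46 and 4.25 relative log2 RPM in del/del libraries, against 5.22 and 4.99 in fl/fl libraries, a difference of -0.75 (adjusted p = 0.0332) that lost the call in 12 of 21 alternatives. It was positive on the deposited scale, at 0.13. Srebf2 differed by -0.12 and did not pass. Among the synthesis genes that are not members, Sc4mol, a sterol demethylation enzyme gene, differed by -0.48 (SE 0.15, adjusted p = 0.0513) and the squalene synthase gene Fdft1 by -0.52 (SE 0.17, adjusted p = 0.0629 by limma). All 18 synthesis genes were positive on the deposited scale at day 8. Of 10 fatty acid genes under SREBP, Me1 passed at day 8 with a difference of -0.96 (adjusted p = 0.0144), and of 10 genes of the isoprenoid branches, Fntb, a farnesyltransferase subunit, with -0.96 (0.00759 by limma). Both were near 0 on the deposited scale, at -0.079 and -0.077. Each is 1 of 10 in its list, no more than that share. The Me1 call was lost in 4 of 21 alternatives, among them without either del/del day 8 library, and the Fntb call in 3, among them without replicate 2 of these. The summed level of 9 fibroblast markers was 454 and 586 relative RPM in del/del libraries at day 8, against 254 and 70.7 in fl/fl libraries, where Dcn was at 0 in replicate 2. That of 12 visceral endoderm markers was 3.5 and 27.5 relative RPM in del/del libraries, against 63.4 and 23.5 in fl/fl libraries, with 1 to 5 markers at 0 in each. The part of these cell types in the day 8 differences was not tested.

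The genotype difference was set against itself between days. Of the 7 members 0 passed between day 5 and day 1, where 0.0% of all tested genes passed and 358 had an unadjusted p under 0.05. Between day 8 and day 5 again 0 of 7 passed, against 0.00711% of all tested genes. Lss had the smallest p of the members there, with a difference of 0.90 between the day 8 and day 5 genotype differences (SE 0.40, interval 0.02 to 1.79, adjusted p = 0.361 by limma). Without fl/fl day 8 replicate 1 it was 1.39 (adjusted p = 0.0183), and Insig1 passed too, at 0.69 (0.0445), in a fit in which 15.6% of all tested genes passed.

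Over the 12 libraries the 7 genes rose and fell together, as many other tested genes did with them. The correlation of each with the mean of the other 6 was 0.70 for Sqle to 0.94 for Lss (Pearson, over 12 libraries that share days, lines and depth). The 12 synthesis genes that are not members had correlations of -0.66 to 0.94 with the members' mean profile, with a median of 0.66, against -0.02 over all 14056 other tested genes. A correlation of 0.70 with that profile ranked 3006 of the 14056, and the 0.68 of Sc4mol ranked 3196. Mvd had 0.94 and Mvk 0.91, while Ebp and Sc5d had -0.62 and -0.66. Srebf2 had 0.42 and Lipa -0.86. The 10 named genes most like the mean profile were Senp2, Mettl14, Kri1, Plekhg5, Zzz3, Arid2, Med13l, Rfx2, Smndc1 and Nsf, with correlations of 0.99 to 0.97, and none is of the sterol route. The highest synthesis gene that is no member, Mvd, ranked 135 of 14056. Mbtps1, of the SREBP control list, ranked 21 with a correlation of 0.97. Of the marker genes, the pluripotency factor gene Esrrb stood highest, at 0.96 and rank 32.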

How the data were processed

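RNA was measured in 12 libraries. The submitters' processing notes list edgeR, TopHat2 2.0.12, bcl2fastq and build mm10, with no role for each. The authors' values are log2 RPM, reads scaled to a library total of 1000000. Out of the log2, 100% of values per library were whole multiples of 1 step within 0.02 reads, with 0 entered as 0.9, which gave the read numbers; no column was left unused.

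Genes with a deposited log2 above 0 in at least 2 libraries were tested with limma 3.58.1 in R 4.3.3. The fit had 6 group means and a mean-variance trend, each library was shifted by the median of its log ratios, and p-values were adjusted by Benjamini-Hochberg over all 14063 genes at 0.05. The fit was tested on simulated data. Exon lengths and overlaps came from GENCODE M21. Each replicate number is 1 cell line, so it pairs the libraries; deviations of same-numbered del/del and fl/fl libraries correlated by 0.13, -0.15 and -0.11 at day 1, 5 and 8. Named genes were all members, up to 4 passing genes of smallest p per pathway list, Srebf2 and the 10 genes most like the members; Stard4, the lower gene of each SREBP list, and the list genes with correlations were named after their values were seen. Some genes of the lists are not reported here and enter no list count. Members and lists were chosen with earlier results of these data known. Alternatives were another scaling, no filter, 3 added reads, voom, array weights, the block, only the groups compared, removal of the trend against reads per kb, and each library left out.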

Additional observations from a re-analysis of the deposited data

How the results depend on the processing

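On the deposited scale the direction turned for Hmgcs1 (0.81) and Sqle (0.46) between genotypes at day 8, for Sqle between day 8 and day 5 in del/del (0.38), and for Sqle in the genotype difference between those days (1.06). It also turned at day 8 for Npc1 (0.13) and Srebf2 (0.76). Between day 5 and day 1 in del/del it turned for Ebp (-0.22), Sc5d (-0.34), Srebf1 (-0.15), Scap (-0.41), Npc1 (-0.016), Scd2 (-0.12), Acss2 (-0.00072) and Srebf2 (-0.77), and between day 8 and day 5 in del/del for Srebf2 (0.35). A change of sign with an unadjusted p of 0.05 or more in both fits was given no direction. The deposited scale carries the shift of the median gene, and whether the median gene itself changed was not tested. The cause of the other changes was not tested.

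The members called between day 5 and day 1 in del/del numbered 2, against 6 on the deposited scale. Of 14063 tested genes 2574 were lower in that comparison, against 4928 on the deposited scale. In fl/fl the members called numbered 1, against 0 on the deposited scale, 4 with voom, 5 with array weights, 2 with the replicate block and 5 with only the groups compared. Of all tested genes 2513 were lower in fl/fl, against 1436, 3208, 3978, 2429 and 4007 in the same order. Between day 8 and day 5 in fl/fl the count of 0 became 1 with the block, where 431 of 14063 tested genes were lower, against 503. Uptake genes higher between day 5 and day 1 numbered 6 in del/del and 7 in fl/fl, against 0 and 2 on the deposited scale. Synthesis genes lower in del/del numbered 3, against 12 on the deposited scale, 5 with the block, 1 with only the groups compared and 6 with the trend against reads per kb removed. Of all tested genes 2574 were lower, against 4928, 2501, 2236 and 2734 in the same order. In fl/fl the synthesis genes lower numbered 1, against 0 on the deposited scale, 5 with voom, 7 with array weights, 3 with the block and 7 with only the groups compared. The counts over all tested genes are those given above for fl/fl. Over all genes the block gave 1 call in the mean over days, against 15, and 0 against 1 both at day 5 and in the genotype difference between day 8 and day 5. It changed no other count of calls given here by over 1.5 times.

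With 1 library left out, members called ranged from 0 to 2 at day 8, in the mean over days, between day 8 and day 5 in fl/fl and in the genotype difference between day 8 and day 5. They ranged from 1 to 6 between day 5 and day 1 in del/del, 0 to 3 in fl/fl, and 0 to 1 between day 8 and day 5 in del/del, and stayed at 0 elsewhere. Uptake genes higher ranged from 5 to 6 in del/del and 5 to 7 in fl/fl, and synthesis genes lower from 0 to 10 and 0 to 4. A lone library left in a group is assumed to vary like the others. The number of all tested genes called also changed with the library left out. These ranges are therefore not read as a result about the members or the lists. Of 1463 alternative values of 70 member results, 1410 kept their side of the threshold, 6 lost the call, 43 gained it and 4 reversed. Of all these values 67 changed sign, 24 of them on the deposited scale and 32 with 1 library left out. The fit of only the groups compared gives no mean over days. The low depth of fl/fl day 8 replicate 2 limits the day 8 comparisons.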
